A study of Mus musculus with 16 samples.

Results

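Cxcr4, Ccr7, S1pr1 and Klf2 are 4 genes of T cell migration and thymic egress, and their expression was followed across all 6 groups of a study of negative selection in mouse thymocytes. Every probe set whose platform annotation named 1 of them as its only gene was taken, which gave 5 probe sets of 12422 tested and 4 genes of 8251 named. Cxcr4 was read by 102794_at, Ccr7 by 104443_at, Klf2 by 96109_at, and S1pr1 by 161788_f_at and by the dimmer 101953_at. No filter on low values was used, so all 5 probe sets entered every test.

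The 16 Affymetrix mouse arrays held total RNA of CD4+CD8+ (double-positive) thymocytes taken from organ cultures of fetal thymus. BDC2.5 thymocytes carry the transgenic T cell receptor of a CD4 T cell clone that recognises pancreatic islets. NOD is the strain that develops autoimmune diabetes, and B6g7 mice have the C57BL/6 background with the MHC haplotype of NOD, so that every group carried that haplotype. On each of the B6g7 and NOD backgrounds there were 3 groups, namely BDC2.5 cells with no peptide added (n = 3), BDC2.5 cells to which peptide had been added for 16 h (n = 3) and wild-type cells (n = 2). Peptide identity and dose are missing from the labels, which also do not say what the wild-type cultures received or whether the arrays of a group came from separate animals, cultures or pools. P-values therefore measure the spread between these arrays, which may be technical.

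Thymocytes are guided by chemokine receptors and, when mature, leave along a gradient of sphingosine 1-phosphate (S1P). CXCR4 is the receptor for CXCL12 and keeps immature thymocytes in the cortex, while CCR7, the receptor for CCL19 and CCL21, draws positively selected cells to the medulla. S1PR1 senses the high S1P of blood and is needed for exit, and KLF2 is a zinc-finger transcription factor that switches on S1pr1 in cells that are ready to leave. In the thymus, CXCR4 belongs to the double-positive stage, and CCR7, S1PR1 and KLF2 are known as genes of the single-positive cells that follow.

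The promoters of Cxcr4 and Klf2 are shown because a promoter window was at hand for these 2 of the 4 genes. Those of Ccr7 and S1pr1 could not be examined. CACCC boxes, which KLF factors bind, were searched for. Sequences are from RefSeq, build GRCm38.p6, which is a C57BL/6J genome, and NOD sequence was not used here. Each runs 5′ to 3′ along the gene's own strand over the 250 bases before its start. Capitals mark CACCC, or GGGTG where the box lay on the other strand. The Cxcr4 window was chr1:128592300-128592549 on the minus strand, just before a gene that spans chr1:128588199-128592299, and the Klf2 window was chr8:72318812-72319061 on the plus strand, before a gene at chr8:72319062-72321654.
Cxcr4: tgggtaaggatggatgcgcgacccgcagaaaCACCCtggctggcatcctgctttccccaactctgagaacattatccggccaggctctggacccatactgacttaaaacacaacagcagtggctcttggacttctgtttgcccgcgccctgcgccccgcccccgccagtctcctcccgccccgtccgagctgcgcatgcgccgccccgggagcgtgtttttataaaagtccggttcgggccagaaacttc
Klf2: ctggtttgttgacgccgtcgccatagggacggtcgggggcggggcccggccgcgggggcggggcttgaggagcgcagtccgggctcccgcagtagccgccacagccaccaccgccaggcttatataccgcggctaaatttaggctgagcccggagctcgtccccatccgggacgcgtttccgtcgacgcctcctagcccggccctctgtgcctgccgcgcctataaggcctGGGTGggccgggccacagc
Each window held 1 CACCC box. That of Cxcr4 lay at bases -219 to -215 from the start, and that of Klf2 at bases -19 to -15 on the reverse strand. The box is common, being present on either strand in 17087 of 32851 windows of the same length (52.0%). The FOXO motif GTAAACA, searched on both strands and present in 1040 windows (3.17%), was in neither. Both windows were richer in G and C (61.2% for Cxcr4 and 71.2% for Klf2) than the median window (52.4%).

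The cells carried the markers of their label. All 13 measured markers of double-positive thymocytes were above the array median on all 16 arrays, among them Cd4 (158 to 327), Cd8a (1074 to 5146), Rag1 (543 to 4745) and Cd3e (213 to 319). As a check of the peptide, 2 genes known to answer the T cell receptor were read in the mean response of both strains. In that mean 0.0242% of probe sets were called (3), against 0.00805% in B6g7 alone and 0% in NOD alone. Nr4a1, an immediate early gene of T cell receptor signalling, was higher by 1.87 ± 0.25 on the log2 scale in the mean response of both strains (limma adjusted p = 0.0138), and Itm2a, a gene of selected thymocytes, by 1.74 ± 0.22 (limma adjusted p = 0.0136). Median intensity per array ran from 54.7 to 59.1. A class of 6 arrays, 1 in each group, stood apart from the other 10. It held those numbered 3 among BDC2.5 cells and those numbered 2 among wild-type cells. Their beta-actin 3′ probe set exceeded the 5′ set by 1.36 to 1.96 on the log2 scale, against 2.24 to 3.27 on the others, a contrast read as a sign of RNA quality.

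Cxcr4 was about as bright as the median probe set, above the array median on 8 of 16 arrays and above the lower quartile on all 16. In BDC2.5 on B6g7 without peptide its intensity was 37.6, 58.45 and 49.9 on the arrays numbered 1, 2 and 3. At 16 h of peptide it was 40.9, 43.7 and 38.1 on the same background. Wild-type B6g7 gave 41.9 and 54.2. All 8 arrays of the B6g7 background thus lay at or below 58.45. In BDC2.5 on NOD without peptide the values were 56.6, 99.3 and 85.9. At 16 h of peptide they were 90.3, 85.9 and 81.4, and wild-type NOD gave 100.04 and 108.6. Of the 8 NOD arrays, 7 were above every B6g7 array, and the array numbered 1 of the group without peptide fell among them.

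**Figure D1:**
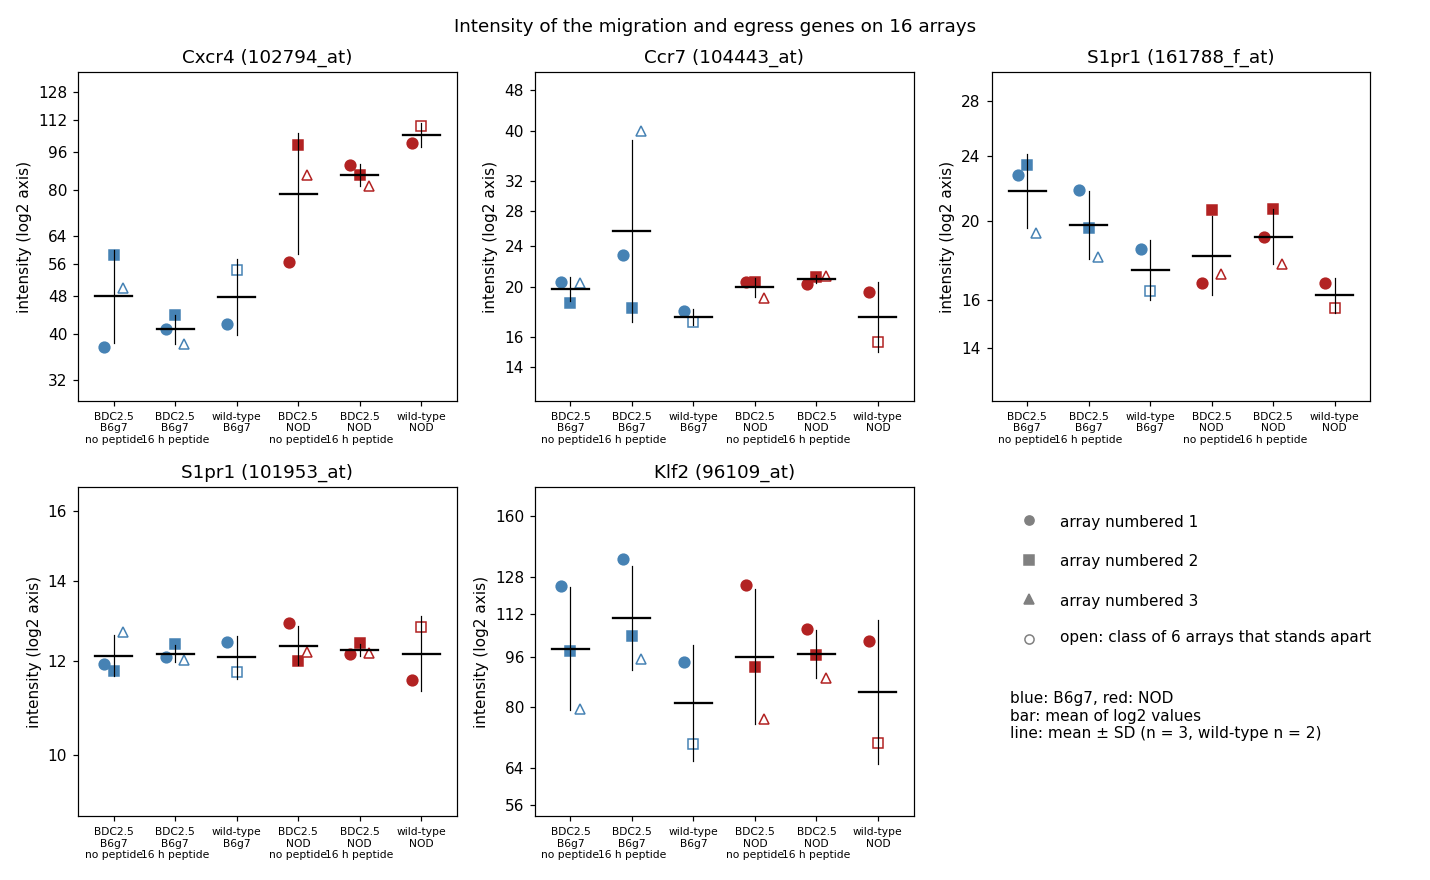
Intensity on a log2 axis of each probe set on each of the 16 arrays by group, blue for B6g7 and red for NOD, with the group mean of the log2 values as a bar and 1 SD to either side as a line (n = 3, wild-type n = 2); open symbols are the 6 arrays that stand apart. Cxcr4 lies between 37.6 and 58.45 on B6g7 and between 56.6 and 108.6 on NOD, while the group ranges of the other genes overlap between strains.

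The strain difference of Cxcr4 passed the threshold in 1 of 3 states. At 16 h of peptide Cxcr4 was higher in NOD by 1.07 ± 0.20 on the log2 scale, a 2.10-fold difference with a 95% interval of 1.56 to 2.83 (limma adjusted p = 0.0291, higher in 3 of 3 same-numbered pairs). It was the 1 member probe set of 5 called in that comparison, in which 0.491% of all probe sets were called (61), 15 higher and 46 lower in NOD. By size it held rank 9 of the 15 called higher. The adjusted p was 0.00612 with the replicate number as a block. It rose to between 0.0751 and 0.163 when any 1 of the 6 arrays compared was left out, and to 0.244 without the class of arrays that stands apart, so the call needed each of those arrays, while the difference stayed between 1.02 and 1.12.

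In wild-type cells, which lack the transgene, the difference was 1.13 ± 0.24, a 2.19-fold higher level in NOD (interval 1.52 to 3.15). It did not pass over all probe sets (limma adjusted p = 0.174) and did with the replicate number as a block (1.13 ± 0.19, limma adjusted p = 0.0302). The replicate block joins the wild-type arrays numbered 2, of the class that stands apart, to the BDC2.5 arrays numbered 2, which lie outside it. Across the transgene contrast, deviations of arrays numbered 1 correlated at 0.695 in B6g7 and 0.678 in NOD. Those of arrays numbered 2 correlated at 0.0580 and -0.499, so the call used a match that the data did not show for these arrays. With the class of 6 arrays as a block the wild-type difference did not pass (limma adjusted p = 0.0613). The percentage of probe sets called there was 0.0886% (11), or 32 probe sets with the replicate number as a block. In BDC2.5 cells without peptide the difference was 0.71 ± 0.20, or 1.64-fold (interval 1.22 to 2.21, limma adjusted p = 0.42), again higher in 3 of 3 pairs, in a comparison with 0.266% called. All NOD arrays lay above all B6g7 arrays with peptide and in wild-type cells, which held in both states for 171 probe sets (1.38%), and the arrays overlapped without peptide. Averaged over the 3 states, a comparison added after seeing the data, Cxcr4 was 0.97 ± 0.12 higher in NOD (1.96-fold, interval 1.63 to 2.36, limma adjusted p = 0.000727), with 1.3% of probe sets called. That mean difference was called in all 25 alternatives run, with adjusted p from 0.000116 to 0.0244. Among these, fitting the compared groups alone repeats the main fit, since all 6 groups are compared.

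Neither the peptide nor the transgene gave a change in Cxcr4 that passed the test. The peptide response was -0.23 ± 0.20 in B6g7 (limma adjusted p = 1), with an interval of -0.66 to 0.20. In NOD it was 0.13 ± 0.20 (limma adjusted p = 1, interval -0.30 to 0.56). The responses differed by 0.36 ± 0.28 (limma adjusted p = 1), a comparison in which limma called 0% of probe sets and 147 had an unadjusted p under 0.05. BDC2.5 cells without peptide differed from wild-type cells by 0.01 ± 0.22 in B6g7 and by -0.41 ± 0.22 in NOD (limma adjusted p = 1 and 0.999). In NOD the 3 arrays without peptide (56.6 to 99.3) lay below both wild-type arrays (100.04 and 108.6). The share of all probe sets with such a separation of 3 from 2 arrays was not counted, so nothing is read from it. The difference of these transgene differences, also added after seeing the data, was -0.41 ± 0.32 (limma adjusted p = 1, 0% called, 104 probe sets at an unadjusted p under 0.05), so the strain difference was not shown to depend on the transgene.

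In order of level, Cxcr4 was highest in wild-type NOD, then in BDC2.5 on NOD with and without peptide, then in BDC2.5 on B6g7 without peptide, wild-type B6g7 and BDC2.5 on B6g7 with peptide. Neighbours in that order were farther apart than the larger of their SDs in 2 places, between wild-type NOD and BDC2.5 on NOD with peptide (0.28) and between BDC2.5 on NOD and on B6g7 without peptide (0.71). The genes most like Cxcr4 over the 16 arrays, among 4831 genes above the median probe set, were Sbf2, Galnt11 and Itga6, with Pearson r of 0.92, 0.91 and 0.91. Over the 10 arrays outside the class they were Wdr92, 1110059E24Rik and Rell1, at 0.96, 0.93 and 0.93. All these arrays share the strain contrast.

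Of the markers of other cell types, the myeloid sum ran higher on B6g7, though the ranges of the 2 strains overlapped. Summed over 14 myeloid and dendritic cell markers, of which 5 were below the array median on every array, intensity ran from 929 to 1864.5 on the B6g7 arrays and from 641 to 953 on the NOD arrays. Apoe made up much of this, with group means of 439 to 649 on B6g7 and 112 to 137 on NOD. Of the 14, 8 were lower in NOD without peptide (median -0.03) and 6 in wild-type cells (median 0.01). At 16 h, 12 were lower (median -0.32) and 2 were called lower, Apoe by -2.42 and Lgals3 by -1.33 (limma adjusted p = 0.0102 and 0.0217). For 10 endothelial markers, a cell type that also expresses Cxcr4, the sums ran from 595 to 868 on B6g7 and from 540 to 934 on NOD, with 6 of the 10 below the array median throughout. The ranges also overlapped for the remaining lists. They were 790 to 942 against 821 to 968 for 13 markers of epithelium and mesenchyme, 579 to 744 against 569 to 784 for 9 B cell markers, 745 to 1144 against 734 to 979 for 6 erythroid markers, and 499 to 789 against 372 to 653 for 8 NK and innate lymphocyte markers. Of these lists, 1 gene was called at 16 h, Blk of the B cell list (-1.38, limma adjusted p = 0.0117). The part of other cells in the Cxcr4 difference was not tested. In bulk RNA, fewer cells of a type and less RNA per cell cannot be told apart. Among the double-positive markers, 12 of 13 were higher in NOD at 16 h, with a median of 0.38 against 0.01 over all probe sets. Without peptide and in wild-type cells 8 of 13 were higher, with medians of 0.11 and 0.06. At 16 h the 1 that was lower was Cd8b1 (-2.02, limma adjusted p = 0.0247). Cd8b1 was also lower in NOD without peptide (-1.89, limma adjusted p = 0.0519) and in wild-type cells (-1.86, limma adjusted p = 0.272). Cd3g was higher in NOD without peptide (1.17, limma adjusted p = 0.0459, called), at 16 h (0.93, limma adjusted p = 0.12) and in wild-type cells (1.06, limma adjusted p = 0.399).

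Of 20 listed chemokine receptors 17 were measured, and Cxcr4 was the 1 called in any strain comparison. Their median strain difference was 0.01 without peptide, 0.01 with peptide and -0.06 in wild-type cells, against 0.03, 0.01 and -0.03 over all probe sets. Ccr9, the receptor for CCL25 that double-positive thymocytes also express, was above the array median on all 16 arrays, with group means between 314 and 392. Its strain differences were -0.25, 0.07 and -0.06 (limma adjusted p = 1 in each). Of the ligands, the brightest of 3 Cxcl12 probe sets stayed below the array median on all 16 arrays (group means 26.8 to 30.4). It differed by 0.04, 0.01 and -0.10 between strains.

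**Figure D2:**
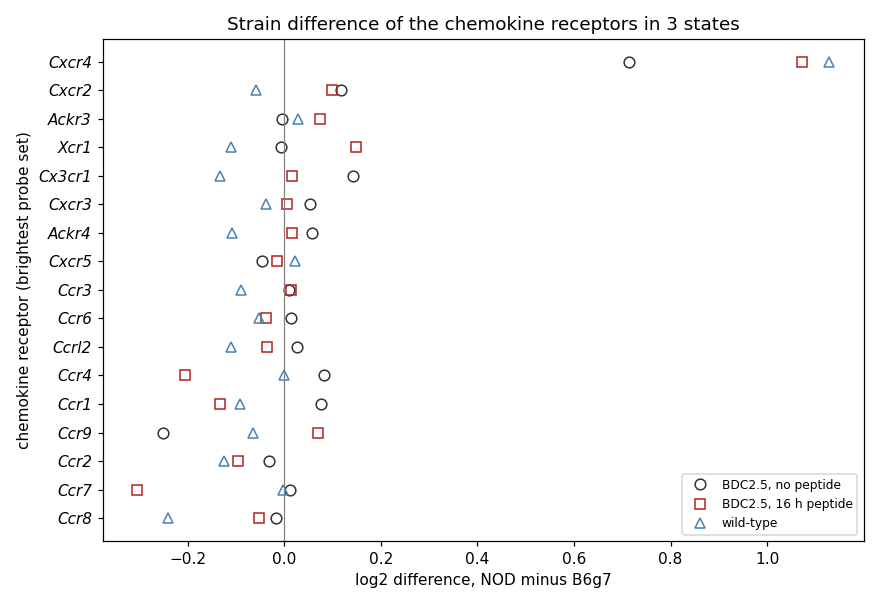
Log2 difference between NOD and B6g7 of the 17 measured chemokine receptors (brightest probe set each), in BDC2.5 cells without peptide (circles), with 16 h of peptide (squares) and in wild-type cells (triangles). Cxcr4 lies at 0.71, 1.07 and 1.13 while the other receptors lie between -0.30 and 0.15.

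Ccr7 was near the floor of the arrays, above the lower quartile of its array in 1 case of 16 and never above the median. The gene lies at chr11:99144199-99155077. In BDC2.5 on B6g7 the intensity was 20.5, 18.6 and 20.4 without peptide. At 16 h of peptide it was 23.1, 18.2 and 40.0, so that 1 array, numbered 3, stood far above the rest. Wild-type B6g7 gave 18.0 and 17.1. On NOD the values were 20.4, 20.5 and 19.0 without peptide, 20.3, 20.9 and 21.0 with it, and 19.6 and 15.7 in wild-type cells. The groups overlapped in all but the comparison of BDC2.5 with wild-type B6g7. The share of all probe sets without overlap in that comparison of 3 with 2 arrays was not counted, so nothing is read from it. There the 3 transgenic arrays were above both wild-type arrays, by 0.18 ± 0.22 on average (limma adjusted p = 1, 0.0805% of probe sets called).

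The peptide response of Ccr7 was 0.37 ± 0.20 in B6g7 (limma adjusted p = 1), where 1 probe set, 0.00805%, was called. Without the array at 40.0 it was 0.05 ± 0.11 (limma adjusted p = 0.999), so its size rested on that array. In NOD, where limma called 0% of probe sets and 207 had an unadjusted p under 0.05, it was 0.05 ± 0.20. The mean response was 0.21 ± 0.14 (limma adjusted p = 0.998), in a comparison with 0.0242% of probe sets called. Between strains Ccr7 differed by 0.01 ± 0.20 without peptide, -0.30 ± 0.20 with it and -0.00 ± 0.24 in wild-type cells (limma adjusted p = 1 in each). The genes most like Ccr7 over 16 arrays were Wdr43, Mdn1 and Lrrc59 (r = 0.93, 0.93 and 0.91). Over the 10 arrays outside the class they were Dync1i1, Sars and Hdac3 (r = 0.89, 0.89 and 0.85). The 16 arrays include the array at 40.0, which the 10 leave out.

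S1pr1, at chr3:115710433-115715055, read near the bottom of the intensity range. Its dimmer probe set, 101953_at, gave 11.6 to 12.9 on all 16 arrays, below the lower quartile of each array, and its log2 differences were 0.03 or less in size in all 9 planned comparisons. The brighter set, 161788_f_at, carries the suffix by which the maker marks probes that can bind several similar transcripts, and it was above the lower quartile on 1 array. In BDC2.5 on B6g7 it read 22.8, 23.4 and 19.3 without peptide. At 16 h of peptide it read 21.8, 19.6 and 18.0, and wild-type B6g7 gave 18.5 and 16.4. On NOD the values were 16.8, 20.6 and 17.2 without peptide, 19.1, 20.7 and 17.7 with it, and 16.8 and 15.7 in wild-type cells. The range over all arrays was 0.58 on the log2 scale, the B6g7 group without peptide was highest and both wild-type groups were lowest.

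No comparison of S1pr1 was called. On 161788_f_at the group without peptide was lower in NOD by -0.26 ± 0.10 (unadjusted p = 0.026 in the limma fit, adjusted p = 1), in 3 of 3 pairs, though the arrays overlapped. BDC2.5 cells without peptide were above wild-type cells by 0.32 ± 0.12 in B6g7 (unadjusted p = 0.0163 in the limma fit, adjusted p = 1), with no overlap. The corresponding difference in NOD was 0.16 ± 0.12 (limma adjusted p = 0.999), also with no overlap, in a comparison with 0.0564% called. The share of all probe sets without overlap was not counted for these transgene comparisons of 3 with 2 arrays, so nothing is read from it. The peptide response was -0.14 ± 0.10 in B6g7 and 0.08 ± 0.10 in NOD (limma adjusted p = 1 in each). The 2 probe sets did not share these patterns, since 101953_at differed by 0.03, 0.01 and 0.02 in the first 3 of these comparisons. Genes most like 161788_f_at were Anapc11, Ltb and Sdhc over 16 arrays (r = 0.84, 0.84 and 0.82) and Wdr55, Ltb and Psmb8 over 10 (r = 0.88, 0.87 and 0.86).

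The rest of the S1P pathway gave no call in any comparison, with 14 of 20 listed genes measured. The median mean peptide response of the list was -0.04 against -0.02 over all probe sets. S1pr4, an S1P receptor of lymphocytes, had a mean peptide response of 0.19 ± 0.16 (limma adjusted p = 0.998). The genes with the smallest unadjusted p were Plpp1 and Sphk1 for the mean peptide response (0.14 ± 0.09 and 0.15 ± 0.13) and, beside S1pr1, Gna13 for the strain difference without peptide (-0.84 ± 0.36, limma adjusted p = 1). Gna13 encodes a G protein subunit that S1P receptors use.

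Klf2 was above the array median on all 16 arrays. In BDC2.5 on B6g7 its intensity without peptide was 124, 98.0 and 79.4. After 16 h of peptide it was 136.5, 103 and 95.2. Wild-type B6g7 gave 94.2 and 70.0. On NOD it was 125, 92.6 and 76.6 without peptide, 106, 96.4 and 89.0 at 16 h, and 101 and 70.3 in wild-type cells. Group means spanned 81.2 to 110. The array numbered 1 was highest in all 6 groups, and the arrays of the class that stands apart were lowest in all 6.

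**Figure D3:**
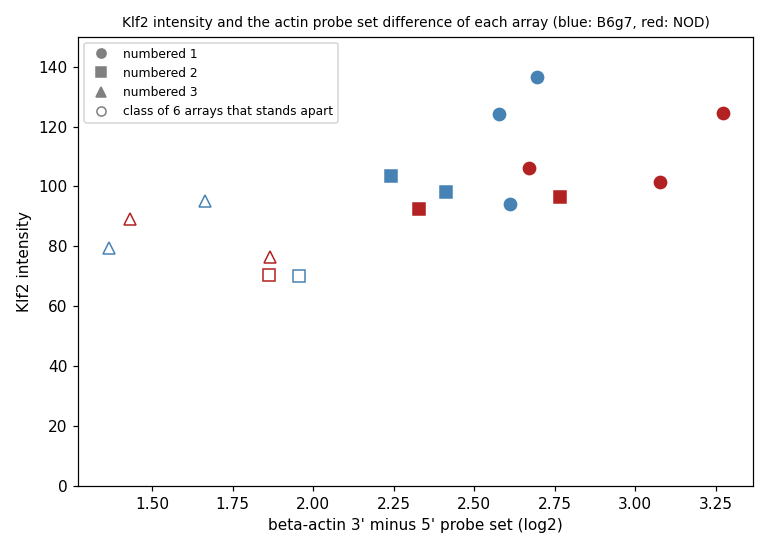
Klf2 intensity of each array on a linear axis that starts at 0, against the log2 difference between the 3′ and 5′ beta-actin probe sets on that array, with blue for B6g7, red for NOD and open symbols for the class of 6 arrays. The open symbols lie at 1.36 to 1.96 and between 70.0 and 95.2, and the filled ones at 2.24 to 3.27 and between 92.6 and 136.5.

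The geometric mean of Klf2 was 79.5 on the 6 arrays of the class and 107 on the other 10, and within groups the class was lower by a mean of -0.40 on the log2 scale. For S1pr1 161788_f_at the same values were 17.4, 19.9 and -0.17, with the class lowest in 5 of 6 groups. For Cxcr4 they were 65.4, 61.0 and 0.09, with the class lowest in 2 groups and highest in 2. The part of RNA quality in the Klf2 levels was not tested.

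No difference of Klf2 by treatment, transgene or strain passed the test. The peptide response was 0.16 ± 0.23 in B6g7, higher in 3 of 3 pairs, and 0.01 ± 0.23 in NOD, with intervals of -0.33 to 0.65 and -0.48 to 0.51 (limma adjusted p = 1 in each). BDC2.5 cells without peptide were 0.28 ± 0.26 above wild-type cells in B6g7 and 0.18 ± 0.26 in NOD (limma adjusted p = 1 and 0.999). Between strains Klf2 differed by -0.04 ± 0.23 without peptide, -0.19 ± 0.23 with it and 0.06 ± 0.28 in wild-type cells (limma adjusted p = 1 in each). The genes most like Klf2 were Htt, Col18a1 and Sphk2 over 16 arrays (r = 0.94, 0.94 and 0.92) and Cela1, Irf2bp1 and Pou2f3 over the 10 outside the class (r = 0.97, 0.96 and 0.95).

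Other KLF factors gave no call either, with 11 of 13 measured and a median mean peptide response of -0.07. Klf3, a repressor of the family, had a mean response of -0.42 ± 0.18, alike in B6g7 (-0.42) and NOD (-0.43), with a limma adjusted p of 0.998. Klf13 gave -0.17 ± 0.10 and Klf6 -0.26 ± 0.34. Klf10 was 0.54 ± 0.29 higher in NOD without peptide (limma adjusted p = 1).

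**Figure D4:**
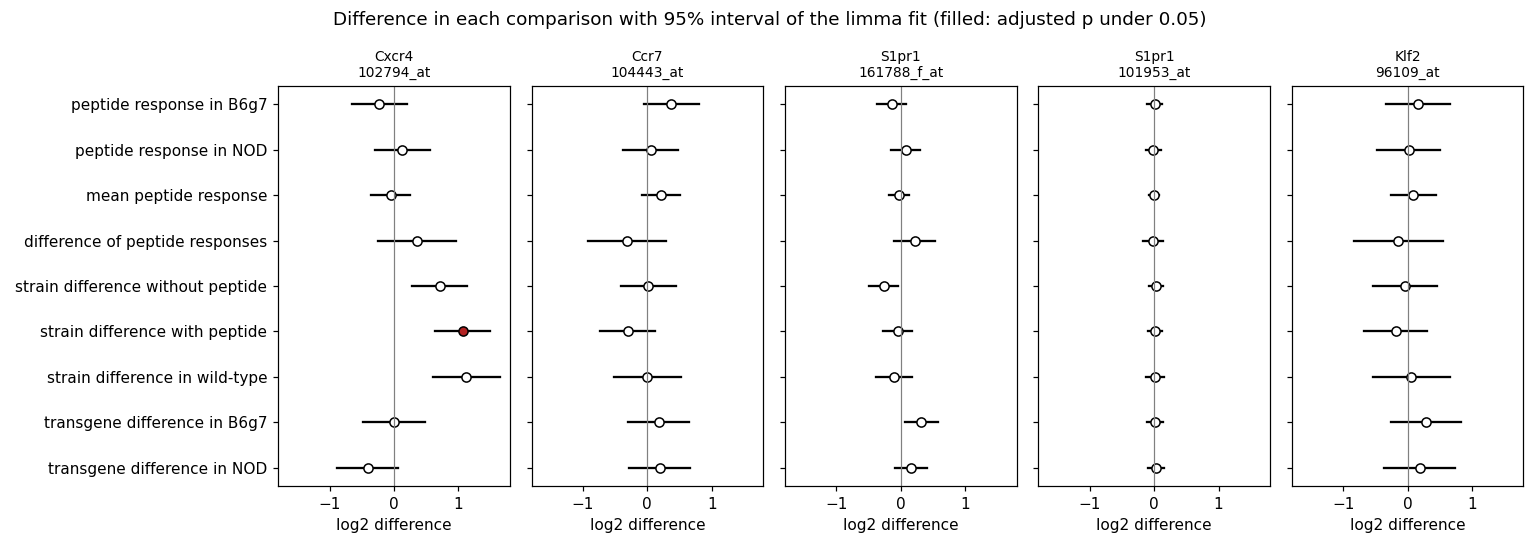
Log2 difference of each probe set in the 9 planned comparisons with its 95% interval from the limma fit, filled where the adjusted p was under 0.05. The 1 filled point is Cxcr4 between strains at 16 h of peptide (1.07), and the intervals of 101953_at are the narrowest.

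The 4 genes were also compared from array to array. Over 16 arrays, 0 of 6 pairs passed after adjustment over the 6 by the Benjamini-Hochberg method. S1pr1 and Klf2 were nearest, with Pearson r = 0.549 (permutation p = 0.0286, adjusted p = 0.172) and Spearman rho = 0.5 (permutation p = 0.0514, adjusted p = 0.201), and r = 0.527 without the 2 arrays farthest from the median of S1pr1. Within the 10 arrays outside the class that r was 0.0893 (permutation p = 0.807), and within the 6 inside it 0.642 (exact permutation p = 0.169), so the relation did not hold within both classes. Inside the class Ccr7 and Klf2 gave r = 0.877 (exact permutation p = 0.00556, adjusted p = 0.0333) and rho = 0.943 (exact permutation p = 0.0167, adjusted p = 0.1), and r was 0.937 over 4 arrays. These 6 arrays are 1 of each group, so differences between groups enter r. Ccr7 was near the floor on them except for the array at 40.0. The adjustment ran over the 6 pairs within each set of arrays, not over all sets. Outside it their r was 0.634 (permutation p = 0.0574, adjusted p = 0.345), and 0.208 without the 2 farthest arrays.

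Of the 24 listed genes of thymic maturation and egress 18 were measured, and Foxo1 was not analysed here. With peptide 14 of the 18 were higher in the mean response, with a median of 0.20 against -0.02 over all probe sets, and 0 were called, in a comparison where limma called 0.0242% and 445 probe sets had an unadjusted p under 0.05. In the same comparison 10 of 13 double-positive markers were lower (median -0.26) and 10 of 14 myeloid markers were higher (median 0.12), with 0 called in either list. The part of cell make-up in these values was not tested. The largest were Il7r, the interleukin-7 receptor chain that returns after positive selection (0.78 ± 0.21, limma adjusted p = 0.684), and Ptpn13, a phosphatase (0.55 ± 0.14, limma adjusted p = 0.554). The Il7r group means were 23.8 without and 41.7 with peptide in B6g7, and 22.3 and 37.4 in NOD. In BDC2.5 against wild-type B6g7 15 of 18 were higher and 1 was called, where 0.0805% of all probe sets were. That gene was Gimap4, a GTPase of maturing T cells, whose group mean was 814 in BDC2.5 and 127 in wild-type cells (2.68 ± 0.34, limma adjusted p = 0.00263). In NOD the difference of Gimap4 was 0.65, and the difference between the strains' values (-2.03) was not called. Itgb7, an integrin chain, was higher in BDC2.5 cells by 0.71 in B6g7 and 0.69 in NOD, and neither value was called.

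Among genes that carry out movement, 24 of 30 listed for receptor signalling and motility and 19 of 20 integrin and adhesion genes were measured, and 0 of either list was called in any of the 9 planned comparisons. For the mean peptide response, the motility genes of smallest p were Rhoh (-0.30), Rgs2 (0.47) and Rgs10 (0.46). The adhesion genes were Alcam (0.16), Cd47 (-0.35) and Thy1 (-0.42), with a limma adjusted p of 0.998 for each of the genes of both lists. In the mean strain difference added after seeing the data, where 1.3% of all probe sets were called, each list had 1. Itga6, a laminin-binding integrin chain, was higher in NOD by 1.33 ± 0.23 (limma adjusted p = 0.00722), with group means of 36.8 to 55.0 on B6g7 and 102 to 120 on NOD. Dock2, an activator of Rac that lymphocytes need to follow chemokines, was lower in NOD by -0.55 ± 0.12 (limma adjusted p = 0.0424). Of 20 chemokine ligands 16 were measured and 14 were higher in the mean peptide response, with a median of 0.16 and 0 called. In B6g7 alone 14 were higher (median 0.22), and in NOD 9 (median 0.03). Of the 14 myeloid markers 11 were higher with peptide in B6g7 (median 0.26) and 5 in NOD (median -0.06), and their part in the ligand values was not tested. Ccl2 (0.75 ± 0.37) and Ccl5 (0.42 ± 0.18) were the largest in size among the 3 of smallest p (limma adjusted p = 0.998 in each).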

How the data were processed

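The 16 arrays are mouse Affymetrix expression arrays, for which the authors deposited 1 linear intensity per probe set and array. For background, scaling and probe set summary, the method is not given in the sources used, and no detection values were used. Differences in the authors' scaling would move all probe sets of an array together, so 2 rescalings were tried. Precision is limited by the number of arrays.

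Of 12488 probe sets, 66 controls were left out. The platform annotation named 1 gene for 10833 of the remaining 12422, several for 396 and none for 1193. Gene IDs matched RefSeq for 10817, with 0 symbols changed. The log2 intensity, without a pseudocount, was fitted in R 4.3.3 with limma 3.58.1 (lmFit and contrasts.fit, then moderated by eBayes with a trend on intensity, two-sided), with 1 mean per group over all 16 arrays and 10 residual and 3.60 prior degrees of freedom. Benjamini-Hochberg adjustment ran over all 12422 within each of 9 comparisons, with calls made below an adjusted p of 0.05. On simulated data the fit was checked only for returning the mean size of planted differences. That simulation had independent noise on each array and no class of arrays apart, so it does not test the calls made here. Values after ± are standard errors. Permutation tests used scipy 1.17.1, with 100000 resamples for 10 or more arrays and exact enumeration for 6, two-sided.

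The 4 genes, the 7 pathway lists, the 7 marker lists and the class of 6 arrays were chosen with earlier results of these data known, so lists are described by counts and medians, with the brightest probe set of each gene, and received no test. The text names every member probe set, the 3 genes most correlated with each member and a few fixed genes. A rule also picked, for each pathway list, up to 3 genes of smallest p for the mean peptide response and for the strain difference without peptide. Not all genes of this rule are named. The choice among them, and of list genes beyond the rule, was made with their values in view.

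The titles number the arrays. Deviations of same-numbered arrays from their group means correlated at 0.639, 0.249 and 0.600 across the peptide contrast in B6g7, at 0.608, 0.581 and 0.793 in NOD and at 0.165 to 0.842 between strains of BDC2.5 cells. The numbers were therefore taken to pair the 12 BDC2.5 arrays, from the data and not from the labels. For the transgene difference of B6g7 they were 0.695 and 0.0580, and for that of NOD 0.678 and -0.499. Alternatives were the replicate number or the class as a block, leaving out the class or each array in turn, quantile normalization, centring on the median, a pseudocount of 16, leaving out dim probe sets, fitting the compared groups alone and no intensity trend.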

Additional observations from a re-analysis of the deposited data

Results flagged for a closer look

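The peptide response of S1pr1 on 161788_f_at went in opposite directions in the strains, pair by same-numbered pair. It was lower with peptide in all 3 pairs of B6g7 (-0.25 to -0.06 on the log2 scale) and higher in all 3 pairs of NOD (0.0035 to 0.19). The difference of the responses was 0.21 ± 0.15 and did not pass the test (limma adjusted p = 1). The probe set was above its array's lower quartile on 1 of 16 arrays. The dimmer 101953_at did not share the pattern, being higher with peptide in 2 of 3 pairs of B6g7 and in 1 of 3 pairs of NOD. The share of all probe sets with such opposite pairs was not counted, and the numbers were not shown to pair the arrays.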

How the results depend on the processing

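Over the alternatives run, 552 of 598 differences of the 4 brighter probe sets kept their direction and side of the threshold, 38 turned, 7 lost a call and 1 gained one. All 7 losses were Cxcr4 between strains at 16 h of peptide. The number of member probe sets called there fell from 1 to 0 without the class that stands apart, and was 0 when any 1 of the 6 arrays compared was left out. These fits had fewer arrays. With the replicate block the number called between wild-type strains rose from 0 to 1 (Cxcr4, 1.13, adjusted p = 0.0302), and no other call changed. This block joins the wild-type arrays numbered 2 to BDC2.5 arrays outside their class, and with the class as a block Cxcr4 was not called there (adjusted p = 0.0613). Calls over all probe sets rose with the replicate block from 11 to 32 between wild-type strains, from 61 to 129 between strains at 16 h and from 33 to 69 without peptide. The differences that turned were not called in any setting. Those of S1pr1 101953_at changed sign too, between -0.10 and 0.10, with no call. Without the class, the Klf2 response in NOD was -0.086, the mean Cxcr4 response 0.042, and the Ccr7 strain difference 0.0081 with peptide and 0.12 in wild-type cells. For Ccr7 between strains, without peptide and in wild-type cells, quantile normalization gave -0.0066 and 0.034 and centring -0.0073 and 0.021, and the pseudocount gave 0.00070 in wild-type cells. With each array left out in turn, Klf2 ran from -0.23 to 0.12 between strains without peptide, -0.21 to 0.32 between wild-type strains, -0.31 to 0.044 for the difference of responses, -0.15 to 0.20 for the NOD response and -0.080 to 0.45 for the NOD transgene difference. Cxcr4 ran from -0.17 to 0.035 for the mean response, -0.11 to 0.30 for the NOD response and -0.18 to 0.19 for the B6g7 transgene difference. Ccr7 ran from -0.034 to 0.046 between strains without peptide, -0.55 to 0.018 with it, -0.16 to 0.16 in wild-type cells and -0.56 to 0.0070 for the difference of responses. S1pr1 161788_f_at ran from -0.11 to 0.024 between strains with peptide and from -0.074 to 0.016 for the mean response. For these the cause was not tested. With group means removed, r became 0.245 for Cxcr4 with S1pr1, -0.230 for Ccr7 with S1pr1 and -0.0091 for Ccr7 with Klf2. Leaving out dim probe sets removed Ccr7 and S1pr1, which then had no value. Signal near the floor limits what could be seen for both.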
